A study of Mus musculus with 36 samples.

Results

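The genes described here are the mouse immunoglobulin heavy and light chain genes, followed while C/EBPα turned B cell precursors into macrophage-like cells. They were chosen by symbol and by level: every symbol in the count tables that begins like an immunoglobulin heavy, kappa or lambda segment was taken, and those with at least 20 reads summed over all 36 libraries were kept. Of 40354 genes in the tables, 313 symbols matched and 191 were kept, while 122 were left out. One of the 191, Ighmbp2, is a helicase gene on chromosome 19 that only shares the first letters, so 190 are immunoglobulin genes. They comprise 104 heavy V, 5 D, 4 heavy J and 7 heavy constant genes, 57 kappa V, 5 kappa J and 1 kappa constant gene, and 3 lambda V, 1 lambda J and 3 lambda constant genes. In all 11 of them are annotated as pseudogenes, 7 among heavy V and 4 among kappa V. At the edge of the rule, Igkv8-28 and Igkv9-129 came in with 20 reads each, and Igkv8-19 stayed out with 19.

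The cells were B cells from the bone marrow of C57BL/6J mice, enriched with magnetic beads and expanded with IL-7 into a pre-B culture. They were infected with a retrovirus that carries human CD4 and C/EBPα fused to the hormone-binding domain of the estrogen receptor, so that estradiol (E2) moves the factor into the nucleus and starts B cell to macrophage transdifferentiation (BMT). The 3 constructs were wild-type C/EBPα (WT), C/EBPα with arginine 35 changed to alanine (R35A) and C/EBPα with arginine 35 changed to lysine (R35K). Infected cells were plated with E2 on growth-arrested mouse embryo fibroblasts in IL-7, IL-3, FLT-3, mCSF-1 and mSCF, and RNA was sequenced at 0, 1, 3, 6, 18 and 120 hours post induction (hpi), with 2 libraries in each of 18 groups. The cells at 120 hpi carry the label macrophages. Cells at 0 hpi carry the same fusion as their later counterparts, without E2. The study's methods call the 2 libraries of a group biological replicates. The labels do not say whether they came from separate mice or cultures, so p-values measure only the spread between these samples, part of which may be technical. Transcripts came from a bulk population, so fewer cells that make immunoglobulin and less immunoglobulin RNA per cell cannot be told apart.

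Immunoglobulin genes are built by joining. In a B cell precursor the recombinase assembles a D and a J segment and then a V segment of the heavy chain locus, and the joined exon is spliced to the μ constant exons of Ighm. The μ chain first pairs with the surrogate light chain to form the pre-B cell receptor. Kappa and then lambda light chain loci are rearranged later, and Igkc encodes the constant part of the kappa chain. Unrearranged segments and constant exons are also transcribed as germline RNA before or without joining, so a read over a segment does not by itself prove a finished chain. The γ and α constant genes are reached by class switching in mature B cells.

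The J segments show what a short segment looks like to a 50-base read. They are printed here because counting of single genes can discard reads across the V to J or J to constant joints. Each line gives the reference segment (GENCODE vM21, mm10, coding strand), with the J motif in capitals, which codes for tryptophan (heavy) or phenylalanine (kappa) followed by glycines. The motifs searched were TGGGGNNNNGGNAC for heavy J and TTCGGNNNNGGNAC for kappa J, on both strands. The heavy motif was found in 4 of 4 heavy J segments and the kappa motif in 4 of 5 kappa J segments, Igkj3 being the one without it. Of windows of 54 bases cut from all annotated transcripts 0.071% held the first, and of windows of 39 bases 0.00681% held the second.
Ighj1 (chr12:113429781-113429833, minus strand): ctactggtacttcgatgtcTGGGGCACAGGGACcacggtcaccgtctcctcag
Ighj2 (chr12:113429468-113429515, minus strand): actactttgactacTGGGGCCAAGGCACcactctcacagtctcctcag
Ighj3 (chr12:113429085-113429132, minus strand): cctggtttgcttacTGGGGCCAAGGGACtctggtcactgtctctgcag
Ighj4 (chr12:113428514-113428567, minus strand): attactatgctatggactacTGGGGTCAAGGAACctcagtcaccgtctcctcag
Igkj1 (chr6:70722562-70722599, plus strand): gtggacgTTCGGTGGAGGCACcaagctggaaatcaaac
Igkj2 (chr6:70722916-70722954, plus strand): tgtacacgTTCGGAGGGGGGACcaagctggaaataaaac
Igkj3 (chr6:70723223-70723260, plus strand): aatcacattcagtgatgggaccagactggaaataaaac
Igkj4 (chr6:70723548-70723585, plus strand): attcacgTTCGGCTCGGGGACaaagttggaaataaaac
Igkj5 (chr6:70723886-70723923, plus strand): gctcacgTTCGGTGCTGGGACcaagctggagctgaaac

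Ighv14-2 and Ighv14-4 are shown because they are near copies that moved differently in WT and R35A cells. Their spliced coding sequences are 351 bases each and are 95.7% identical, with 15 positions that differ. Bases 52 to 351 are shown, with the 13 differing positions among them in capitals.
Ighv14-2 (chr12:113994469-113994898, minus strand): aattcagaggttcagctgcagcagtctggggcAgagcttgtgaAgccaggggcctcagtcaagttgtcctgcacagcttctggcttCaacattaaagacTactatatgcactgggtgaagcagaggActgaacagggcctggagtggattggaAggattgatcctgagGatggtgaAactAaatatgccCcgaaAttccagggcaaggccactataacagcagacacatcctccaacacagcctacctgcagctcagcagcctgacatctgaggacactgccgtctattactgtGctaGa
Ighv14-4 (chr12:114176438-114176867, minus strand): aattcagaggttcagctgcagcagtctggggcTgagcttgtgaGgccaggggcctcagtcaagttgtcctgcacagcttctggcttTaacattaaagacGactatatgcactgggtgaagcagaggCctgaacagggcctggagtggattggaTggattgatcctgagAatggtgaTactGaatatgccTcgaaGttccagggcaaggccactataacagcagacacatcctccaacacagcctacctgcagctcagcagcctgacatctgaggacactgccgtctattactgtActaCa

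Libraries held 13044456 to 23131776 counted reads, with a median of 15471229.5. Counts were made with a program that keeps a read only where it maps to 1 place and overlaps 1 gene. How reads that joined a V to a J or a constant exon were mapped and counted was not checked. Reads that fit similar V genes equally well were not counted. A V gene count is therefore uncertain wherever a close copy exists. The share of 50-base windows of a gene found nowhere else in the annotated transcripts had a median of 79.1% over the heavy V genes and 81.9% over the kappa V genes. It was 62.9% for Ighv14-2, 80.9% for Ighv14-4, 29.7% for Ighv1-52, the lowest among heavy V genes, and 100% for Ighm and Igkc. Levels are given as CPM, read counts scaled to a common library total with TMM factors over the 36 libraries. As a check of the cell labels, the 12 pre-B markers summed to 4250 to 4277 CPM in WT cells at 0 hpi and to 223 to 227 CPM at 120 hpi, while the 8 macrophage markers summed to 67.3 to 67.5 CPM at 0 hpi and to 18714 to 19216 CPM at 120 hpi. In R35A cells at 120 hpi the same lists stood at 112 to 113 CPM and 27156 to 31072 CPM. In R35K cells they stood at 161 to 168 CPM and 26131 to 26274 CPM. In each library at 120 hpi 1 of the 12 pre-B markers had 0 reads.

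Ighm carried most of the immunoglobulin RNA at every timepoint. Heavy constant genes took 90.8% of all reads on the 191 genes, heavy V genes 3.92% and Igkc 2.15%. Per kilobase of annotated exon, Ighm reached 1803 CPM in WT cells at 0 hpi, Igkc 158 CPM, Ighg2b 41.2 CPM, Ighd 12.4 CPM and Iglc1 6.37 CPM. Both the order and the sizes were alike in R35A cells at 0 hpi, with 1689 CPM per kilobase for Ighm and 148 for Igkc.

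Ighm (chromosome 12, 113418558 to 113422730, minus strand, mm10), which encodes the constant part of the μ heavy chain, fell at 1 hpi in all 3 constructs and fell furthest in R35A. Taking the 6 timepoints in order, the paired WT libraries measured 3333 and 3468, 1610 and 1652, 1466 and 1546, 1186 and 1241, 306 and 306, and 104 and 98.8 CPM. In R35A cells the same series ran 3188 and 3185, 487 and 465, 482 and 485, 451 and 465, 179 and 188, and 21.1 and 26.2 CPM. In R35K cells it ran 3285 and 3377, 793 and 782, 823 and 831, 747 and 727, 272 and 258, and 33.0 and 34.6 CPM. The groups at 1 hpi did not overlap, with WT highest, R35K between and R35A lowest, while at 0 hpi the 6 libraries lay within 3185 to 3468 CPM. From 0 to 1 hpi Ighm was 2.08-fold lower in WT (log2 fold change -1.05 ± 0.034 SE, adjusted p = 3.56e-31, edgeR quasi-likelihood test with Benjamini-Hochberg adjustment), 6.69-fold lower in R35A (-2.76 ± 0.036, adjusted p = 8.35e-49) and 4.23-fold lower in R35K (-2.08 ± 0.034, adjusted p = 7.08e-33). By 120 hpi it was 33.5-fold, 135-fold and 98.6-fold below its 0 hpi level.

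Ighd, the δ constant gene just downstream of Ighm, followed the same order. Its 2 libraries measured 23.5 and 23.6 CPM in WT at 0 hpi and 12.2 and 12.3 at 1 hpi, against 22.8 and 23.2 then 4.28 and 3.98 in R35A, and 21.6 and 23.3 then 7.34 and 7.36 in R35K. It was 1.92-fold, 5.56-fold and 3.06-fold lower at 1 hpi in WT, R35A and R35K. Ighg2b, a γ constant gene, went in WT from 109 and 111 CPM to 26.8 and 25.1. R35A took it from 97.8 and 105 CPM to 9.77 and 8.97, and R35K from 104 and 105 CPM to 20.7 and 19.7. It was 4.25-fold, 10.8-fold and 5.18-fold lower at 1 hpi in WT, R35A and R35K, and at 120 hpi no library held Ighg2b above 0.0854 CPM.

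Ighg3, a further γ constant gene (chromosome 12, 113356224 to 113361232, minus strand), did not follow the other constant genes in R35A. It held 19 and 23 reads in WT at 0 hpi and 1 and 3 reads at 1 hpi. In R35A it held 20 and 19 reads at 0 hpi, still 19 and 19 at 1 hpi, and 1 and 0 at 3 hpi. Its fall in R35A was called between 1 and 3 hpi (log2 fold change -4.76, adjusted p = 4.35e-05, edgeR). R35K had 19 and 15 reads at 0 hpi and 2 and 3 at 1 hpi. The log2 fold change from 0 to 1 hpi was -3.48 in WT, -0.13 in R35A, which was not called (adjusted p = 0.771), and -2.68 in R35K. Ighg1 and Igha, the other switched constant genes tested in every construct, had 0 to 17 and 0 to 20 reads in any library. Igha had 2 and 2 reads at 0 hpi in WT and 7 and 5 at 1 hpi (log2 fold change 1.37, not called, adjusted p = 0.166), and 10 and 12 then 4 and 1 in R35A (-2.17, a call lost with DESeq2 and without the second R35A library at 1 hpi). Ighg2c, with at most 5 reads in any library, was below the filter in the WT and R35A fit.

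Igkc (chromosome 6, 70726435 to 70726966, plus strand), the constant gene of the kappa light chain, fell at 1 hpi in all 3 constructs. Over the same 6 timepoints WT libraries had 83.0 and 85.5, 41.4 and 44.3, 33.1 and 33.2, 19.3 and 19.1, 2.85 and 1.66, and 0.241 and 0.597 CPM. R35A libraries had 78.3 and 79.0, 15.9 and 14.5, 12.9 and 13.2, 11.7 and 10.7, 5.50 and 5.34, and 1.25 and 2.09 CPM. R35K libraries had 76.1 and 82.2, 27.5 and 27.7, 24.2 and 23.7, 17.6 and 17.6, 5.19 and 5.02, and 2.08 and 0.151 CPM. WT was the highest of the 3 constructs at 1 to 6 hpi and the lowest at 18 hpi, with no overlap with R35A at any of these timepoints. At 120 hpi the 2 R35K libraries, at 27 and 2 reads, lay on either side of the WT libraries at 3 and 7 reads. Igkc was 1.97-fold lower at 1 hpi in WT, 5.16-fold in R35A and 2.87-fold in R35K, and 201-fold, 47.1-fold and 71.0-fold lower at 120 hpi.

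The lambda constant genes were low. Iglc1 had 2.71 and 3.07 CPM in WT at 0 hpi and 1.08 and 1.33 at 1 hpi, and 3.62 and 3.91 then 0.857 and 0.645 in R35A. Its log2 fold change at 1 hpi was -1.24, -2.33 and -1.51 in WT, R35A and R35K. Iglc3 held 21 and 18 reads in WT at 0 hpi and 16 and 14 at 1 hpi, which was not called (-0.54), and 23 and 25 then 3 and 2 in R35A (-3.29). Iglc2 had log2 fold changes of -0.47, -1.04 and -0.45, of which only that of R35A was called, and that call was lost under several of the alternatives listed at the end.

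**Figure D1:**
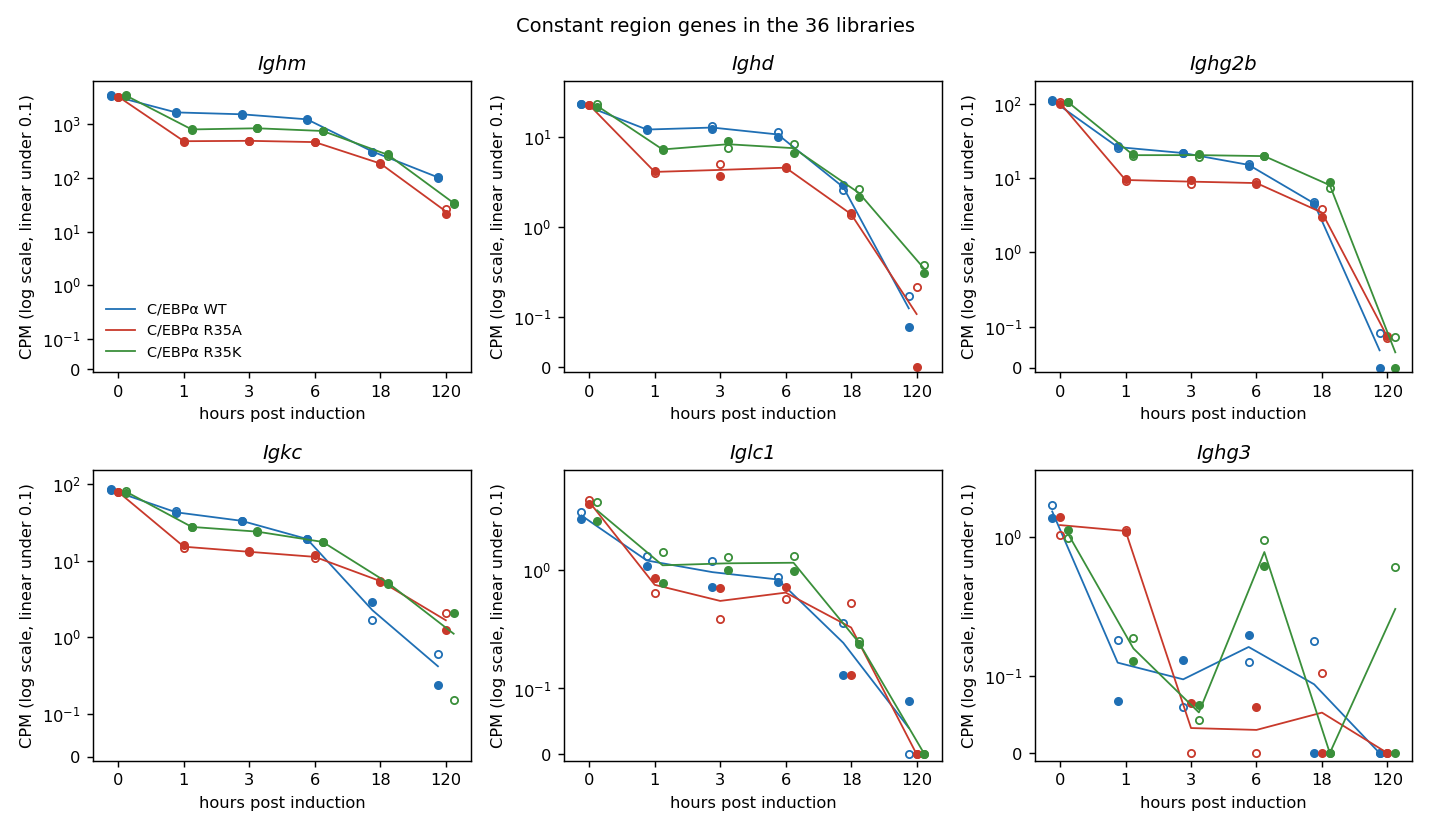
CPM (vertical axis, log scale that turns linear below 0.1) of Ighm, Ighd, Ighg2b, Igkc, Iglc1 and Ighg3 against hpi for WT, R35A and R35K; filled points are replicate 1, open points replicate 2 and lines join the means. Ighm, Ighd, Ighg2b and Igkc separate by construct at 1 hpi with R35A lowest, Ighg3 stays at 19 reads in both R35A libraries at 1 hpi, and the Igkc lines cross between 6 and 18 hpi.

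The summed level of the heavy V genes, which encode the variable part of the heavy chain, had the same order of constructs at 1 hpi as Ighm. It was 174 ± 4.4 CPM (SD, n = 2) in WT at 0 hpi and its later values were 37.0%, 31.5%, 24%, 5.31% and 0.453% of that. In R35A it was 153 CPM at 0 hpi and 14.7% of that at 1 hpi, and in R35K 155 CPM and 24.6%. Kappa V genes, at 20.1, 17.2 and 18.7 CPM at 0 hpi, stood at 48.7%, 20.0% and 32.4% at 1 hpi in WT, R35A and R35K. The heavy constant genes stood at 47.2%, 14.8% and 23.6%, and the heavy J genes at 37.8%, 13.9% and 21.5%. In WT the V and J segments of the heavy chain had thus kept a smaller part of their 0 hpi level at 1 hpi than the constant genes had, and in R35A the values were close together. The heavy constant value rests on Ighm, without which it was 28.6% in WT. Since the sums are descriptions, no test was run on them.

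Read counts allowed 104 immunoglobulin genes to be tested in WT and R35A and 87 in R35K. A gene had to be high somewhere to pass the filter, and most are high at 0 hpi, so the counts that follow describe these genes and test nothing about them as a list. At 1 hpi 84 of 104 were called lower and 0 higher in WT, where 9.27% of all genes tested were called lower and 10.7% higher, called meaning an adjusted p of at most 0.05 and a change of at least 1.5-fold. DESeq2 called 50 lower in WT. In R35A 100 of 104 were lower and 0 higher against 18.9% of all genes called lower and 18.3% higher, and in R35K 78 of 87 were lower and 1 higher against 17.4% called lower and 15.5% called higher. DESeq2 called 91 and 68 lower in R35A and R35K. The median log2 fold change was -1.5 in WT, -2.94 in R35A and -2.11 in R35K, where all genes tested had medians of -0.013, -0.008 and -0.043. Among heavy V genes, 63 of 76 tested were lower in WT with a median of -1.5, 74 of 76 in R35A with a median of -3.01, and 57 of 64 in R35K with a median of -2.27. Kappa V genes were lower in 5 of 7, 6 of 7 and 4 of 4. All 4 heavy J genes were lower in each construct, led in level by Ighj4, which went from 155 and 157 reads to 69 and 76 in WT and from 146 and 169 to 21 and 24 in R35A.

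Between 1 and 6 hpi few of these genes were called within a construct. From 1 to 3 hpi 3 of 104 genes fell in WT (0.683% of all genes lower) and 2 in R35A (0.147% lower), and from 3 to 6 hpi 5 fell in WT (0.553% lower) while in R35K 1 of 87 fell (0.414% lower) and 1 rose (0.773% higher). Counts against 0 hpi were 89 and 96 of 104 lower at 3 and 6 hpi in WT (11.5% and 14.7% of all genes), 102 and 100 in R35A (19% and 19.2%) and 82 and 82 of 87 in R35K (16.8% and 17.8%). From 6 to 18 hpi the fall resumed, with 55 of 104 lower in WT against 10.0% of all genes, 18 of 104 in R35A against 2.76%, and 31 of 87 in R35K against 4.28%. Ighm fell 3.96-fold in WT over that step, 2.5-fold in R35A and 2.78-fold in R35K. Igkc fell 8.52-fold in WT, 2.07-fold in R35A and 3.44-fold in R35K. By 18 hpi 103 of 104 genes were below their 0 hpi level in WT (23.2% of all genes lower), 104 of 104 in R35A (21.6% lower) and 85 of 87 in R35K (20.5% lower).

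The proportions among the segments changed differently by construct and by segment. Heavy V reads per 100 Ighm reads were 5.14 and 5.12 in WT before induction, then 4.05 and 3.86, 3.72 and 3.57, 3.40 and 3.48, 3.30 and 2.75, and finally 0.616 and 0.951 at the last timepoint. In R35A they were 4.77 and 4.83, then 4.55 and 4.88, 3.84 and 3.72, 4.23 and 4.54, 4.97 and 4.32, and 4.43 and 5.23. The last R35A values were near those before induction but rest on 12 and 19 heavy V reads, of which Ighv6-3 had 8 and 12. At 120 hpi the WT libraries held 8 and 11 heavy V reads and the R35K libraries 10 and 14. R35K libraries held 4.56 and 4.74 at 0 hpi and 2.33 and 3.06 at 120 hpi. Igkc reads per 100 Ighm reads changed more in the mutants than in WT by 1 hpi, from 2.49 and 2.47 to 2.57 and 2.68 in WT, from 2.46 and 2.48 to 3.27 and 3.12 in R35A, and from 2.32 and 2.43 to 3.47 and 3.54 in R35K. By 18 hpi they were 0.930 and 0.543 in WT, 3.07 and 2.84 in R35A, and 1.91 and 1.95 in R35K. At 120 hpi they were 0.231 and 0.605 in WT, 5.90 and 7.99 in R35A, and 6.29 and 0.438 in R35K, where the 2 libraries did not match. Ighm made up 88.1% and 88.3% of immunoglobulin reads in WT at 0 hpi and 98.6% and 97.9% at 120 hpi, against 88.6% and 84.6% in R35A at 120 hpi. Immunoglobulin reads other than Ighm numbered 18 and 25 in WT and 35 and 66 in R35A at 120 hpi. Of those in R35A, Igkc had 16 and 29, Ighv6-3 8 and 12, and Igkv4-55 4 and 7. No test was run on these ratios.

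**Figure D2:**
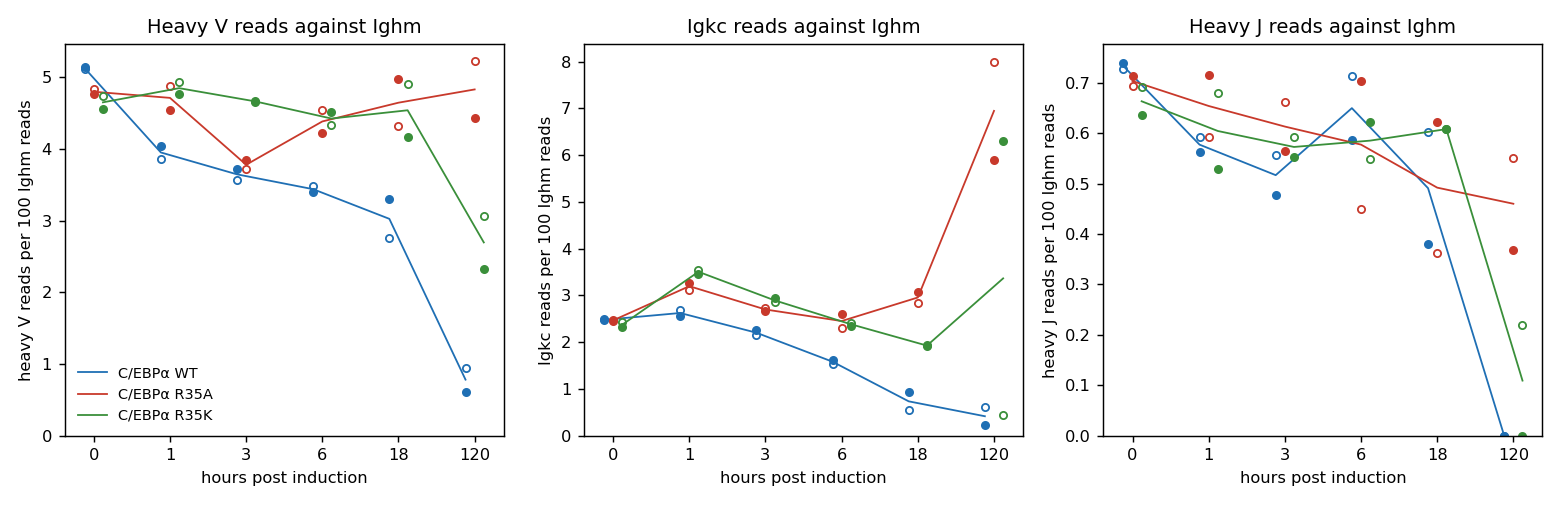
Reads of heavy V genes, of Igkc and of heavy J genes per 100 Ighm reads (vertical axes) against hpi in WT, R35A and R35K, with filled points for replicate 1, open points for replicate 2 and lines through the means. At 120 hpi WT heavy V reads are at 0.616 and 0.951 and its heavy J reads at 0, R35A heavy V reads lie between 3.72 and 5.23 throughout, and the 2 R35K libraries part for Igkc at 6.29 and 0.438. The R35A heavy V values at 120 hpi rest on 12 and 19 reads, of which 8 and 12 are of Ighv6-3.

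At 0 hpi no immunoglobulin gene was called between R35A and WT cells. With edgeR, 0 of 104 genes were called in either direction, where 0% of all genes tested were called. At an unadjusted p of at most 0.05, 7 were lower and 1 higher, where 0.730% and 0.806% of all genes were, and DESeq2 also called 0. At 1 hpi 56 of 104 genes were lower in R35A and 2 higher, while of all genes tested 10.8% were lower and 8.51% higher. The median log2 difference was -1.61, and 98 of 104 genes had a negative sign. Of the heavy V genes 41 of 76 were lower and 1 was higher, and of the 6 heavy constant genes tested 3 were lower and 1 higher.

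By gene, at 1 hpi R35A was 3.43-fold below WT for Ighm (log2 difference -1.79 ± 0.035, adjusted p = 2.26e-40, edgeR) and 2.81-fold below for Igkc (-1.51 ± 0.082, adjusted p = 9.66e-22). Ighd differed by -1.58, Ighg2b by -1.48 and Iglc3 by -2.68 on the log2 scale. Ighg3 was the constant gene called higher, 8.84-fold, with 19 and 19 reads in R35A and 1 and 3 in WT (3.02 ± 0.62, adjusted p = 5.31e-05). Of V genes, Ighv14-2 was 5.22-fold lower in R35A (-2.39 ± 0.25, adjusted p = 2.26e-11), and its near copy Ighv14-4 was 1.81-fold higher (0.84 ± 0.31, adjusted p = 0.0215). That call for Ighv14-4 was lost with DESeq2 and without WT replicate 1 or 2 or R35A replicate 1 at 1 hpi. At 6 hpi, with 31 and 44 reads in R35A against 5 and 11 in WT, Ighv14-4 was again higher in R35A (1.93, adjusted p = 1.5e-05). Ighj4 had a log2 difference of -1.84 at 1 hpi.

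**Figure D3:**
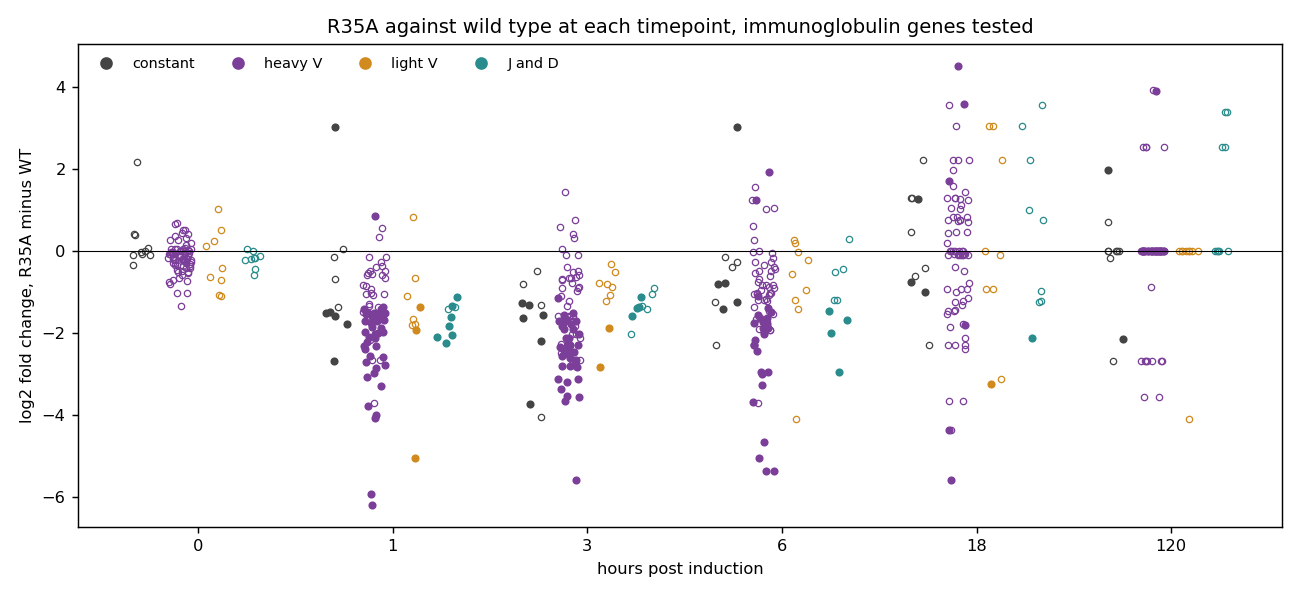
Log2 fold change of R35A against WT (vertical axis) at 0 to 120 hpi for the tested immunoglobulin genes, with filled points for genes called and open points for the others, in colours for constant, heavy V, light V, and J and D genes. Most points lie below 0 at 1, 3 and 6 hpi and spread around 0 at 0 hpi.

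Whether R35A and WT moved by unlike amounts since 0 hpi was tested as an interaction. At 1 hpi it was called lower for 45 of 104 genes and higher for 2, where 8.74% and 5.29% of all genes were. For Ighm it was -1.71 ± 0.048 (adjusted p = 6.57e-33, edgeR), for Igkc -1.42 ± 0.1 (adjusted p = 1.67e-16) and for Ighv14-2 -2.32 ± 0.32 (adjusted p = 4.03e-08). The 2 genes called higher were Ighg3 at 3.35 ± 0.74 (adjusted p = 0.000235) and Ighv14-4 at 1.21 ± 0.39 (adjusted p = 0.012), the latter lost with DESeq2 and without any of 3 libraries. DESeq2 called 15 lower and 0 higher, so it called neither Ighg3 nor Ighv14-4. The direct comparison with WT gave 49 lower genes at 3 hpi and 35 lower and 3 higher at 6 hpi, against 9.04% and 7.52% of all genes called lower and, at 6 hpi, 6.2% called higher. The lower calls at 3 hpi were 29 with DESeq2 and also 29 without the second WT library at 3 hpi, and those at 6 hpi were 21 without the second R35A library at 6 hpi. At 18 hpi only 7 were lower and 4 higher, with 3.17% and 6.90% of all genes called in these directions, and at 120 hpi 1 was lower and 2 were higher (6.38% and 12.4%).

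The late differences between R35A and WT went opposite ways for Ighm and Igkc. At 18 hpi R35A was 1.67-fold below WT for Ighm (log2 difference -0.75 ± 0.037, adjusted p = 1.24e-23, edgeR) and 2.40-fold above it for Igkc (1.26 ± 0.19, adjusted p = 1.67e-07). At 120 hpi Ighm was 4.29-fold lower (-2.14 ± 0.051, adjusted p = 3.99e-36) and Igkc 3.99-fold higher (1.96 ± 0.42, adjusted p = 9.49e-05), the latter from 16 and 29 reads in R35A against 3 and 7 in WT. The third gene called at 120 hpi was Ighv6-3 (chromosome 12, 114391712 to 114392169, minus strand), with 8 and 12 reads in R35A and 1 and 0 in WT (3.91 ± 0.91, adjusted p = 0.00034). In R35A its counts had been 33 and 37 at 0 hpi and 0 and 1 at 18 hpi.

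R35K was counted in a table of its own, so a difference between tables and a difference between constructs cannot be told apart, and its comparison with the others rests on the change from 0 hpi in a fit of all 36 libraries that was added after the data were seen. At 1 hpi the interaction of R35K with WT was called lower for 14 of 110 genes and higher for 2 (5.08% and 6.84% of all genes). It was -0.96 ± 0.047 for Ighm (adjusted p = 6.97e-24, edgeR) and -0.48 ± 0.12 for Igkc (adjusted p = 0.000968), which is under the 1.5-fold limit. Against R35A, R35K was higher for 12 genes and lower for 2 (4.15% and 1.68% of all genes), with Ighm at 0.71 ± 0.048 (adjusted p = 1.5e-17). The change of Ighm in R35K was thus between those of WT and R35A, and both differences passed the test. At 120 hpi the Ighm interaction of R35K with WT was -1.61, and that with R35A, at 0.46, was under the 1.5-fold limit.

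Heavy V usage was wide at 0 hpi. Between 102 and 104 of the 104 heavy V genes had a read in each 0 hpi library, and 78 to 95 had one at 1 hpi. No gene took more than 5% of heavy V reads at 0 hpi; the highest was Ighv8-8, with 119 of 2403 reads (4.95%) in the first WT library. Family 1, the largest with 49 members, took 35% to 39.9% of heavy V reads at 0 hpi. Among kappa V genes, Igkv14-111, Igkv9-124, Igkv19-93 and Igkv1-88 together took 24.7% to 40.2% at 0 hpi, and Igkv14-111 alone took 10.5% to 14.2%.

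A heavy V gene whose reads were kept while most others fell was then looked for in each construct, and the 3 genes named here were chosen after their values were seen. In WT, where 13 of the 76 heavy V genes tested were not called lower at 1 hpi, Ighv14-2 had 74 and 64 reads at 0 hpi and 70 and 72 at 1 hpi (log2 fold change -0.13 ± 0.18, adjusted p = 0.596, edgeR), so its share of heavy V reads went from 3.08% (95% Wilson interval 2.46% to 3.85%) and 2.64% to 7.27% (5.79% to 9.08%) and 6.81%. In R35A, Ighv14-4 had 36 and 51 reads at 0 hpi and 41 and 25 at 1 hpi (-0.49 ± 0.25, adjusted p = 0.0846), with shares of 1.65% and 1.8% then 10.6% (7.89% to 14.0%) and 6.46% (4.41% to 9.36%). In R35K, Ighv1-80 had 26 and 25 reads at 0 hpi, 29 and 21 at 1 hpi (0.00, adjusted p = 0.993) and 22 and 23 at 18 hpi, where it made up 11.5% (7.69% to 16.7%) and 11.4% (7.71% to 16.5%) of heavy V reads. The intervals cover counting error only. At 1 hpi each of these genes was called lower in the other 2 constructs. Ighv14-2 had 13 and 17 reads at 1 hpi in R35A and 23 and 21 in R35K, and its interaction of R35K with WT was -1.54 (log2, fit of 36 libraries). In R35K it had 42 and 45 reads at 3 hpi. Ighv14-4 had 16 and 17 in WT and 7 and 9 in R35K. Ighv1-80 had 8 and 5 in WT and 4 and 4 in R35A. The interaction of R35K with WT at 1 hpi was 1.88 ± 0.56 for Ighv1-80 and with R35A it was 2.56 ± 0.6. These interaction values come from the counts by which the genes were chosen, so they describe the choice and do not test it. The same holds for the 1 hpi differences and interactions of R35A with WT given above for Ighv14-2 and Ighv14-4. A further gene, Ighv1-63, had 8 and 7 reads in R35K at 0 hpi and 18 and 18 at 1 hpi, the one gene called higher there (1.27 ± 0.44, adjusted p = 0.0119), and lost that call with DESeq2 and without either R35K library at 0 hpi.

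**Figure D4:**
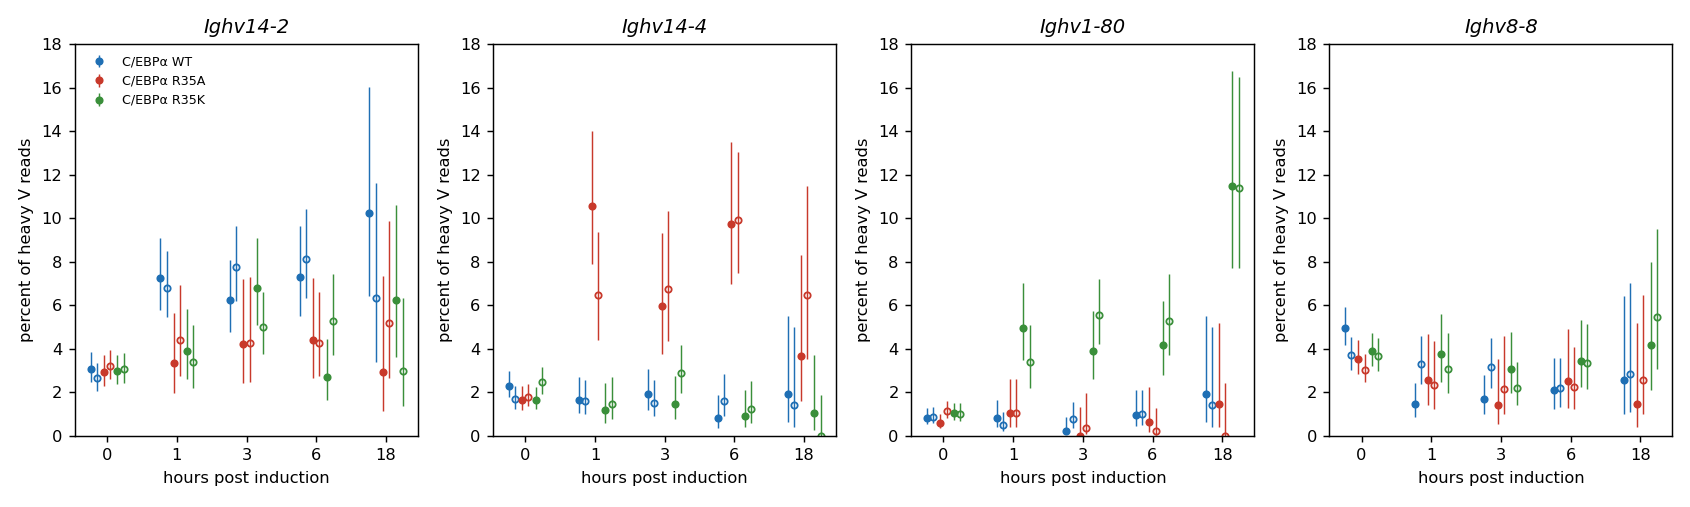
Percent of heavy V reads (vertical axis, bars are 95% Wilson intervals of the counts) taken by Ighv14-2, Ighv14-4, Ighv1-80 and Ighv8-8 at 0 to 18 hpi in WT, R35A and R35K, filled points for replicate 1 and open points for replicate 2. At 1 hpi Ighv14-2 is at 7.27% and 6.81% in WT, and Ighv14-4 at 10.6% and 6.46% in R35A; at 18 hpi Ighv1-80 is at 11.5% and 11.4% in R35K.

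By 120 hpi most V genes were at or near 0 reads, with 103 of 104 immunoglobulin genes lower than at 0 hpi in WT (40.2% of all genes lower; Igha was not called), 104 of 104 in R35A (39%) and 85 of 87 in R35K (38.5%). Both libraries held 0 reads for 87 of the 104 genes in WT, 89 of 104 in R35A and 68 of 87 in R35K. The fitted median log2 fold changes of -7.38, -7.28 and -7.55, against -0.359, -0.306 and -0.275 over all genes tested, therefore depend on how a count of 0 is treated, and with such genes set at their bound the medians were -2.64, -2.76 and -2.98. Both libraries held 0 reads of Ighv14-2 in all 3 constructs, which puts it at least 20.0-fold, 20.9-fold and 20.4-fold below 0 hpi in WT, R35A and R35K with 3 reads per library taken as the limit of a count of 0. The same limit puts Ighj4 at least 45.4-fold lower in WT and 43.0-fold in R35A, and Ighv8-8 at least 30.3-fold, 22.3-fold and 25.6-fold lower.

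Small counts stood out at single timepoints. A search made after the values were seen, for a mean level at least 3 times that of the neighbouring timepoints of the construct, found 11 cases, each of another gene, with at least 4 reads in both libraries of a group. In a further 18 cases, from 17 genes, only 1 of the 2 libraries had at least 4 reads, and Igha, Ighg3 and Iglc2 were in both lists. In R35K, Igha reached 14 and 20 reads at 18 hpi after 0 and 5 at 6 hpi (log2 fold change 2.78). Ighg3 reached 10 and 17 at 6 hpi after 1 and 1 at 3 hpi (3.77) and 0 and 0 at 18 hpi. These fold changes come from the counts that the search used, so they are descriptions and no test of the cases. In R35A, Igkv10-96 had 7 and 9 reads and Igkv14-100 had 7 and 5 at 3 hpi. Ighv2-9 had 7 and 6 at 6 hpi. Ighv6-3 had 8 and 12 and Igkv4-55 had 4 and 7 at 120 hpi.

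**Figure D5:**
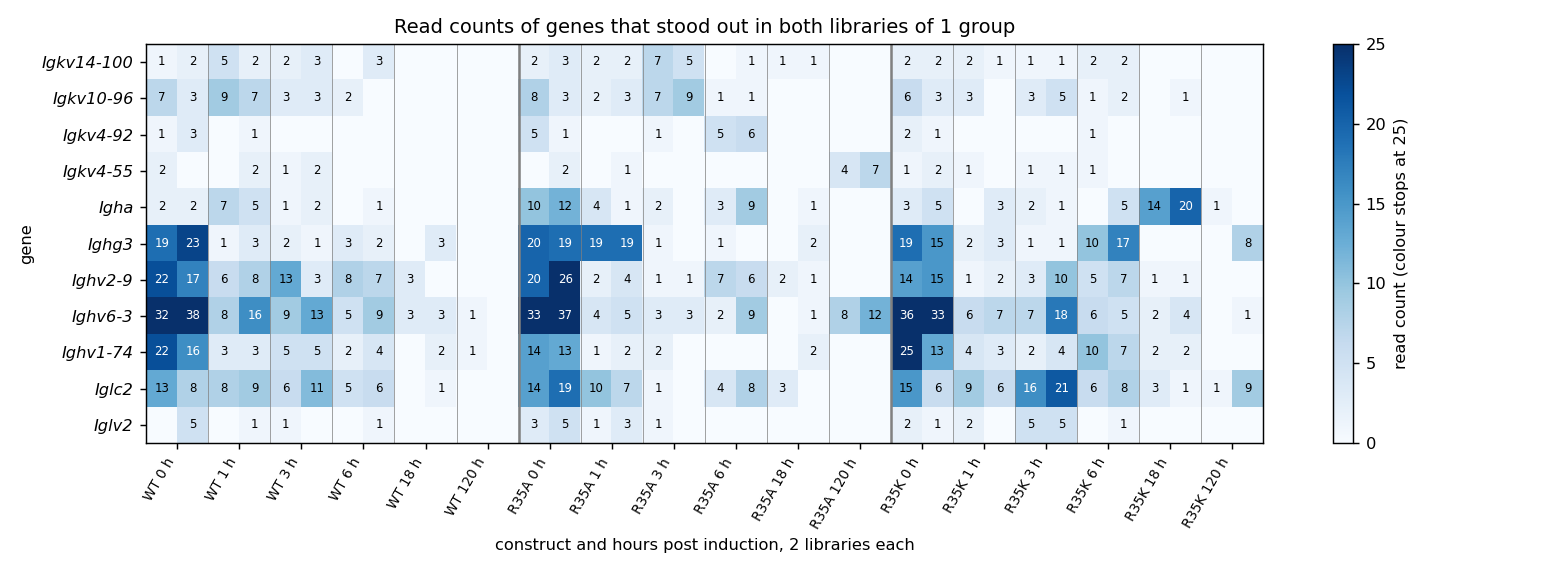
Read counts (colour, which stops at 25) of the 11 genes that stood out in both libraries of a group, one row per gene and one column per library in order of construct and hpi. The paired counts, such as 14 and 20 reads for Igha in R35K at 18 hpi, follow from the choice of genes, which asked for at least 4 reads in both libraries. Some of these genes also held reads in other groups, such as 3 and 9 for Igha in R35A at 6 hpi.

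Among other genes of the B cell receptor pathway, the list medians at 1 hpi had the same order of constructs. Their counts stand beside 9.27%, 18.9% and 17.4% of all genes called lower in WT, R35A and R35K, and 10.7%, 18.3% and 15.5% called higher. Of the 13 signalling genes listed, which include the receptor chain Cd79a and the surrogate light chain Igll1, 11 were lower in WT with a median log2 fold change of -1.0, 12 in R35A with -2.63 and 11 in R35K with -1.83. Cd79a stood at -0.81, -2.56 and -1.74 and Igll1 at -0.61, -2.38 and -1.65. The 4 recombination genes were lower in each construct, with Rag1, a subunit of the recombinase, at -2.30, -3.82 and -2.73. Of the 13 transcription factor genes 11, 12 and 11 were lower, among them Pax5 at -1.75, -3.36 and -2.48 and the Igh and Igk coactivator Pou2af1 at -1.54, -3.01 and -2.23, while Spi1 was higher at 1.18, 1.57 and 2.26. Of the secretion genes 3 were lower and 2 higher in each construct, of 7 tested in WT and R35A and 6 in R35K. The 8 plasma cell markers summed to 588 to 617 CPM in WT at 0 hpi, 504 to 518 at 1 hpi and 765 to 776 at 120 hpi, and in R35A to 567 to 573, 526 to 532 and 465 to 481 CPM. The 8 mature B cell markers summed to 686 to 689 CPM in WT and 405 to 451 CPM in R35A at 120 hpi, and the feeder fibroblast markers to 113 to 136 and 430 to 442 CPM. Of the plasma cell markers, only Sdc1 (log2 -1.48) and Irf4 (-1.72) were called in the R35A minus WT interaction at 120 hpi. Of the mature B cell markers only Cd22 (1.35) was called. Tnfrsf17 and Fcer2a, from these lists, were below the filter in the WT and R35A fit. Whether plasma or mature B cells were present was not tested. From 0 to 1 hpi the feeder markers moved from 1094 to 1098 CPM up to 2264 to 2316 CPM in WT, from 1143 to 1169 up to 2520 to 2532 in R35A, and from 1085 to 1149 up to 1982 to 2012 in R35K. The part of these cells in the immunoglobulin values was not tested. Ighmbp2 had a log2 fold change of -0.20, -0.22 and -0.32 at 1 hpi, none of them called.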

How the data were processed

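RNA sequencing counts of 40354 genes were analysed in 36 libraries, 24 of WT and R35A and 12 of R35K in a table of their own. The authors deposited raw read counts per gene, made from single-end 50-base reads with STAR 2.5.0a on mm10; the strand setting of the counts is not given in the sources used here. Depth ran from 13044456 to 23131776 reads. Genes were tested with edgeR 4.0.16 (R 4.3.3) quasi-likelihood fits after filterByExpr and TMM scaling, 1 fit for WT and R35A (16988 genes) and 1 for R35K (16434 genes), and called at an adjusted p of at most 0.05 over all genes and a change of at least 1.5-fold. DESeq2 1.42.0, a 2-fold limit, other scaling, no filter, and leaving out each library were alternatives, as was a replicate block. On simulated data with 200 changed genes (WT at 1 against 0 hpi, 16988 genes) 194 were recovered with 5 false calls. In the data more genes changed at this step, with 9.27% called lower and 10.7% higher. Recovery among genes with few reads is not given by this summary. Named genes were the constant genes, the V genes of highest level, those most changed, and those standing out at 1 timepoint. The members and lists were chosen with earlier results of these data known. GENCODE vM21 supplied positions and sequences, and 97.1% of symbols were found in it.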

Additional observations from a re-analysis of the deposited data

Results flagged for a closer look

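The change from 0 hpi differed between R35A and WT (interaction test, edgeR, adjusted p at most 0.05 and at least 1.5-fold) for 22 named values, 19 at 1 hpi and 3 at 120 hpi. Values are log2, R35A minus WT. At 1 hpi the constant genes gave -1.71 for Ighm, -1.42 for Igkc, -1.56 for Ighd, -1.37 for Ighg2b, -2.74 for Iglc3 and -3.54 for Igha, the last lost without the first WT library at 1 hpi. Ighg3 gave 3.35, which DESeq2 did not call. The J genes gave -1.62 for Ighj4 and -1.13 for Ighj3.

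Heavy V genes at 1 hpi gave -2.32 for Ighv14-2, -1.38 for Ighv9-3, -1.16 for Ighv5-2, -2.01 for Ighv3-6, -1.74 for Ighv1-26 and -2.58 for Ighv8-12, and 1.21 for Ighv14-4. The value of Ighv14-4 lost its call with DESeq2, as described above. The value of Ighv5-2 lost its call with DESeq2 and without the second WT library at 0 hpi or the second R35A library at 1 hpi. Igkv1-117, Ighv1-59 and Ighv3-3 gave fitted values of -6.05, -5.52 and -5.96, but both R35A libraries at 1 hpi held 0 reads of them, so these sizes depend on the prior count. Taking 3 reads as the limit, R35A at 1 hpi was at least 4.2-fold, 4-fold and 3.3-fold below its own 0 hpi level for these 3 genes.

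At 120 hpi Ighm gave -2.06, Igkc 2.05 and Ighv6-3 4.14, the last from 8 and 12 reads in R35A. DESeq2 did not call both Igkc and Ighv6-3 higher here.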

How the results depend on the processing

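No result changed direction. Counts below are members called, with the value as reported in brackets. With DESeq2 the lower calls were 50 for WT at 1 hpi (84). For R35A against WT they were 29 at 3 hpi (49) and 4 at 18 hpi (7), and the higher calls 1 at 1 hpi (2), 1 at 6 hpi (3) and 1 at 18 hpi (4). For the R35A minus WT interaction they were 15 lower and 0 higher at 1 hpi (45 and 2), 12 lower at 3 hpi (35), 8 lower and 1 higher at 6 hpi (27 and 3), 2 lower and 1 higher at 18 hpi (5 and 4) and 1 higher at 120 hpi (2). For R35K the higher calls at 1 and 3 hpi became 0 (1 each). R35K minus WT gave 6 lower and 0 higher at 1 hpi (14 and 2) and 1 higher at 120 hpi (2), and R35K minus R35A gave 4 higher and 0 lower at 1 hpi (12 and 2) and 0 in either direction at 120 hpi (2 and 1). With a 2-fold limit R35A against WT at 1 hpi had 1 higher (2) and the interaction at 18 hpi 3 lower (5). Fitting the compared groups alone gave 2 higher at 18 hpi for R35A against WT (4) and 1 higher at 120 hpi for R35K minus R35A (2). At an unadjusted p, R35A against WT had 7 lower and 1 higher at 0 hpi (0 and 0) and 16 lower at 18 hpi (7), the R35A interaction 1 higher at 3 hpi (0) and 14 lower and 7 higher at 18 hpi (5 and 4), R35K minus R35A 25 higher at 1 hpi (12), and R35K minus WT 4 higher at 120 hpi (2).

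Leaving out 1 library at a time, R35A against WT had 1 to 2 higher at 1 hpi (2), 0 to 1 at 3 hpi (0), 1 to 3 at 6 hpi (3) and 2 to 3 at 18 hpi (4), and 29 to 46 lower at 3 hpi (49, with 29 without the second WT library), 21 to 30 at 6 hpi (35, lowest without the second R35A library), 4 to 7 at 18 hpi (7) and 1 to 2 at 120 hpi (1). Its interaction had 1 to 2 higher at 1 hpi, 0 to 1 at 3 hpi, 1 to 3 at 6 hpi and 2 to 4 at 18 hpi, and 15 to 23 lower at 6 hpi (27, affected by the second WT and the second R35A library) and 3 to 6 at 18 hpi (5). For R35K the higher calls were 0 to 1 at 1 hpi and 0 to 0 at 3 hpi. R35K minus R35A had 1 to 2 lower at 1 hpi, and 0 to 2 higher and 1 to 2 lower at 120 hpi. R35K minus WT had 1 to 2 higher and 8 to 14 lower at 1 hpi and 0 to 2 higher at 120 hpi. For single genes, 4795 values under other settings stayed on the same side of the threshold, 49 lost and 5 gained a call. Leaving out a library gave 3655, 131 and 22. The cause of these changes was not tested.

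The same replicate number showed no pairing of samples common to all groups. Pairing in a part of the groups, or under another numbering, was not tested. Over 153 pairs of groups the deviations of same-numbered libraries correlated with a median of -0.0052 over 11114 genes (lowest -0.437, highest 0.268, 11 above 0.1). With the replicate block the lower calls were 97 for WT at 6 hpi (96), 36 for R35A against WT at 6 hpi (35), 44 for its interaction at 1 hpi (45) and 13 for R35K minus WT at 1 hpi (14), and no other count changed. Depth limits the genes with a few reads per library, where a call can rest on 1 library.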

Other observations

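The position of a heavy V gene along its locus was set against its change from 0 hpi as a description. Over the heavy V genes tested, the Spearman correlation of distance from Ighm with the log2 fold change at 1 hpi was -0.075 in WT and 0.057 in R35A (76 genes each) and 0.29 in R35K (64 genes), where the points share the same libraries and depth. The nearer genes had medians of -1.49 in WT, -2.99 in R35A and -2.38 in R35K, and the farther genes -1.55, -3.05 and -1.92.

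Heavy V family 14, with 4 members, took 10.5% and 9.74% of heavy V reads in the WT libraries at 1 hpi, 15.2% and 11.9% in R35A and 5.79% and 6.1% in R35K. Family 1 took 51.4% and 46.4% in R35K at 1 hpi. In the 2 R35K libraries at 120 hpi, Igkc had 27 and 2 reads, Iglc2 had 1 and 9, Ighg3 had 0 and 8, and Ighv3-8 had 6 and 0. The log2 fold change from 0 to 120 hpi in R35K was -1.72 for Ighg3 (adjusted p = 0.00834, edgeR), a value to which 1 library gave every read.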
